A study of Drosophila melanogaster with 18 samples.

Results

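Brains of 7-day-old virgin females were set against brains of 14-day-old virgin males, which takes 5 of the 16 libraries with values: 2 of 7-day females and 3 of 14-day males. The libraries were chosen by their labelled sex and age alone, without any measured value. The pair of ages answers a question raised by the study's view that gene expression in the brain of young males lags behind that of females. If males reached at 14 days the state that females had reached at 7 days, this would be a pair of unequal ages at which the sexes resemble each other.

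All flies were Oregon wild-type Drosophila melanogaster with no transgene or drug, kept on cornmeal agar. The sexes were parted under CO2 within hours of eclosion, so that every fly was a virgin. The 7-day females (F7) were frozen 7 days after eclosion and the 14-day males (M14) 14 days after it, and each library was made from 100 pooled brains. For comparison, 3 libraries each of 3-day females, 3-day males and 7-day males (M7) and 2 of 14-day females (F14) were made in the same way. Labels exist for 18 libraries, but the authors removed F7 replicate 3 and F14 replicate 1 as outliers, and these are not analysed here. Sex and age differ together between F7 and M14, so their parts in a difference cannot be told apart within this pair. Nothing in the labels says that pools of 1 group were reared apart, so each p measures only the spread between these pools.

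As background, sex in the fly is read from the number of X chromosomes by the splicing factor Sex-lethal (Sxl), which acts through transformer (tra) on doublesex (dsx) and fruitless (fru), the transcription factors of the somatic and neural sexes. In males the MSL complex raises transcription of the single X chromosome, while the Y chromosome carries genes for sperm development. Yolk proteins are made in the female fat body and ovary, and fat body lies against the brain inside the head capsule. In the first days after eclosion the adult brain is still maturing, with changes in metabolism, synapses and behaviour.

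Each value is a read number that the authors had normalized for depth, and whole reads could be recovered from all of them. The recovered totals were 8190912 and 6032865 reads in F7 and 2924715, 3697990 and 6955334 reads in M14, against 2924715 to 8664494 over all 16 libraries. The libraries of each group stood apart from each other. The 100 genes with the most reads took 34.1% and 22.8% of F7 reads, and 11.4%, 20.9% and 22.7% of M14 reads. The median level of 194 taste receptor, cuticle and eggshell genes, which a brain is not known to use much, was 6.31 and 14.0 normalized reads in F7 and 37.5, 20.02 and 11.4 in M14. M14 replicate 1 thus had the lowest depth, the flattest distribution and the highest such background. It also had the lowest level of all 16 libraries of the neuronal markers elav (6165 and 2891 in F7; 753, 2455 and 2537 in M14) and nSyb (11119 and 8579 in F7; 2479, 7287 and 8266 in M14). The glial marker repo stood at 424 and 234 in F7 and 194, 174 and 153 in M14, so neurons and glia were present in every library. F7 replicate 1 lay at the other end, with the highest neuronal levels of the 5 and the highest share of the top genes. The part of these features in the results below was not tested.

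The number of differentially expressed genes (DEGs) was small. Of the 12448 genes that averaged 5 or more normalized reads, 17 passed an adjusted p of 0.1 (0.137%), 11 higher (0.0884%) and 6 lower (0.0482%) in F7 than in M14. With a share of 0.137%, the absence of DEGs from a list below says little about that list. At an unadjusted p of 0.05, 963 genes were higher (7.74%) and 804 lower (6.46%). The values of the 2 F7 libraries lay wholly above those of the 3 M14 libraries for 1410 genes (11.3%) and wholly below them for 1726 (13.9%). The count of DEGs changed with the libraries kept and with the method. It was 1077 (8.65%) without F7 replicate 2, 6 without F7 replicate 1 and 446 (3.58%) without F7 replicate 2 and M14 replicate 1 together. The lone F7 library in these 3 fits was assumed to vary like the other groups. The count was 7 without M14 replicate 1, 8 without M14 replicate 2 and 23 without M14 replicate 3. DESeq2 on the recovered reads called 496 (3.98%), with no adjusted p for 9412 genes. The cause of these changes was not tested.

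A low count is not the same as likeness. The 95% interval of the fold change lay within 2-fold for 2839 genes (22.8%) between F7 and M14, against 3330 genes (26.8%) between F7 and M7 and 3340 genes (26.8%) between F14 and M14. At the same threshold, F7 against M7 gave 7 DEGs (0.0562%), F14 against M14 gave 41 (0.329%), and F7 against 3-day males gave 19 (0.153%). With all libraries F7 thus had neither the fewest DEGs nor the most genes within 2-fold when set against M14. These comparisons share libraries, and no test was made of the difference between their counts. The intervals use 1 spread shared by all 6 groups, so they do not give the spread of F7 and M14 alone. With only the groups compared, 936 genes lay within 2-fold between F7 and M14. That number also changed with single libraries. It was 3743 without M14 replicate 1, 1981 without M14 replicate 2 and 1965 without M14 replicate 3. The counts at equal age were not recomputed with libraries left out, so the order of these comparisons was not tested there.

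**Figure D1:**
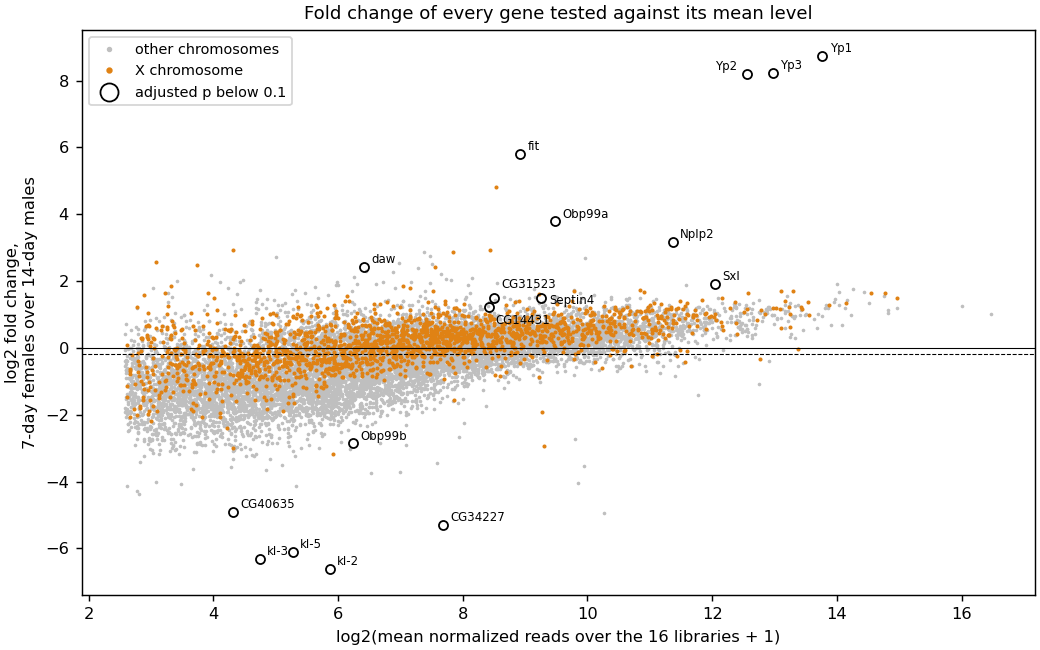
Each point is 1 of the 12448 genes tested, with its mean level over the 16 libraries as log2(normalized reads + 1) on the horizontal axis and the log2 fold change of 7-day females over 14-day males on the vertical axis. X-linked genes are orange, open circles mark the 17 genes past an adjusted p of 0.1, the solid line is 0 and the dashed line is the median of all genes, −0.17; genes at low levels lie mostly below the dashed line and abundant ones above it.

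The DEGs with the largest positive fold changes were genes known from the female fat body. Yp1, Yp2 and Yp3, which encode the yolk proteins taken up by oocytes, were all higher in F7, and so were fit, a female fat-body gene linked to feeding, and the odorant-binding protein gene Obp99a. Of the 24 fat body and haemolymph genes tested, 2 were higher and 1 was lower, with a median log2 fold change of 0.12 beside −0.17 for all genes, so the list as a whole did not follow these genes. In bulk tissue a larger number of cells of 1 type and more RNA per cell cannot be told apart.

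Yp1 (chrX:10053811-10055498, release 6 of the genome) had 43366 and 11611 normalized reads in F7, against 156, 43.8 and 19.4 in M14. Its neighbour Yp2 (chrX:10050951-10052636) had 16900 and 4501 in F7, against 60.6, 30.0 and 12.5 in M14, and Yp3 (chrX:13759546-13761547) had 24010 and 6059 in F7, against 99.3, 18.8 and 31.9 in M14. For all 3 genes the lower F7 library exceeded the highest M14 library by a wide margin, and F7 replicate 1 was the higher F7 library each time. Their log2 fold changes were 8.74 ± 0.74, 8.21 ± 0.69 and 8.23 ± 0.63 (SE; limma adjusted p = 3.2e-06, 3.2e-06 and 1.9e-06), and each remained past the threshold whichever library was left out. Reads of Yp1 cannot be told apart from those of the antisense RNA gene that overlaps it, since the library kit did not mark the strand.

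The gene fit (chr3R:21883924-21884454) had 535 and 246 reads in F7, against 15.8, 1.25 and 6.24 in M14, a log2 fold change of 5.81 ± 0.83 (adjusted p = 0.0036). It overlaps CG31465 on the other strand, and its call was lost without F7 replicate 1. Obp99a (chr3R:29671657-29672334) had 1788 and 625 reads in F7, against 95.7, 60.1 and 74.2 in M14 (3.79 ± 0.41, adjusted p = 8.5e-05), with no leave-out ending the call. A related gene went the other way: Obp99b (chr3R:29716254-29716896) had 18.0 and 18.3 reads in F7, against 242, 131 and 82.5 in M14 (−2.86 ± 0.59, adjusted p = 0.098). The groups did not overlap for any of these genes, but leaving out 1 library ended the call of Obp99b in 11 cases.

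The same genes were female-biased at equal ages, in comparisons that share the F7 or the M14 libraries. Against M7 the log2 fold changes of F7 were 9.57, 8.54 and 8.65 for Yp1, Yp2 and Yp3, 7.21 for fit and 3.70 for Obp99a, and all of them were DEGs there as well. In F14 against M14 they were 10.11, 9.79 and 9.81 for the yolk protein genes, 8.61 for fit and 5.25 for Obp99a. For Obp99b the log2 fold change was −2.48 against M7 (adjusted p = 0.35) and −1.96 in F14 against M14 (adjusted p = 0.45).

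Sex-determination genes gave a check of the labels. Sxl (chrX:7074550-7098053) had 10350 and 4807 reads in F7, against 1197, 2440 and 2223 in M14, and was higher in F7 (1.92 ± 0.39, adjusted p = 0.089). The call was lost in 11 of the leave-outs, although both F7 libraries lay above every M14 library. The other members of the pathway did not pass the threshold. For fru the reads were 6837 and 5049 in F7, against 2432, 3203 and 2544 in M14 (1.12 ± 0.29, adjusted p = 0.30), without overlap, and DESeq2 gave it an adjusted p of 0.00034. For dsx they were 134 and 152 in F7, against 443, 203 and 150 in M14, which overlapped (−0.74 ± 0.58, adjusted p = 0.49). The splicing targets of Sxl were close to even, with log2 fold changes of 0.13 ± 0.28 for tra and 0.07 ± 0.26 for msl-2, the subunit of the MSL complex made in males. Gene totals do not show the sex-specific splicing by which these genes act. Both dsx and tra overlap other genes on the opposite strand.

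Y-linked genes had reads in M14 and few or none in F7. Of 17 in the table, 8 passed the filter on the strength of the male libraries, so that their difference follows from the filter and is given as a description. The dynein heavy chain genes kl-5, kl-3 and kl-2, whose products drive the sperm tail, had 207, 141 and 45.8 reads, 110, 130 and 33.3 reads, and 237, 256 and 96.4 reads in M14. In F7 the corresponding values were 0 and 1.6 for kl-5, 0 in both libraries for kl-3 and 0 and 2.4 for kl-2. Set against a floor of 3 reads over the F7 group, kl-3 was at least 71.8-fold lower in F7. CG40635 had 0 and 1.6 reads in F7, against 92.1, 38.8 and 29.1 in M14. These 4 were DEGs (adjusted p = 0.017 to 0.038), and each call was lost without F7 replicate 1, M14 replicate 1 or M14 replicate 2. M14 replicate 3 was the lowest M14 library for all 4. The other members tested, Pp1-Y1, PRY, WDY and CCY, were lower in both F7 libraries than in any M14 library but were not DEGs (adjusted p = 0.18 to 0.34).

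**Figure D2:**
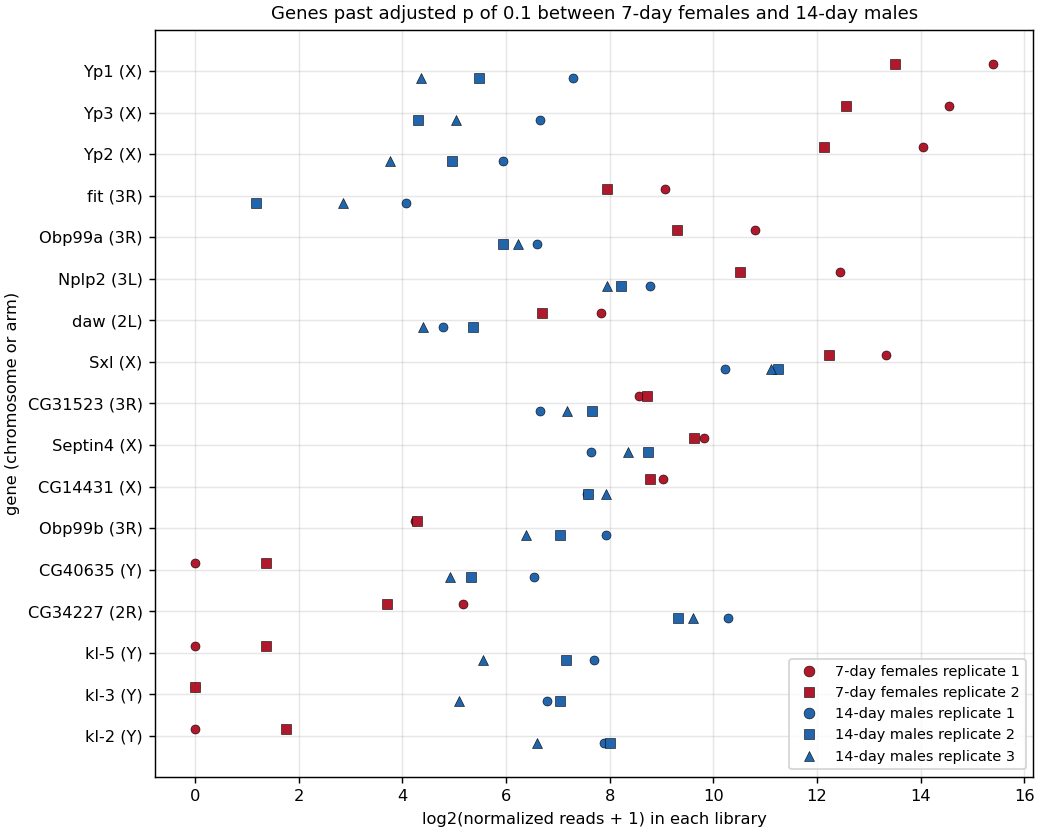
Level of the 17 genes past an adjusted p of 0.1 in each library, as log2(normalized reads + 1) on the horizontal axis, with 1 gene per line and its chromosome or arm in brackets. Red marks are the 2 libraries of 7-day females and blue marks the 3 libraries of 14-day males; for every gene the red marks lie wholly to 1 side of the blue ones, from Yp1, Yp3 and Yp2 on the right of their blue marks to the Y-linked genes at or near 0 in females.

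The remaining DEGs lay outside the yolk protein, fat body, sex-determination and Y-linked lists. CG34227, a gene on arm 2R whose function is not given by the annotation used, had 35.2 and 12.0 reads in F7, against 1238, 637 and 782 in M14. It was the DEG with the strongest support in the male direction (−5.30 ± 0.64, adjusted p = 0.00038), and no leave-out ended the call. In M7 it stood at 99.1, 97.8 and 146 reads, above both F7 libraries and below every M14 library. It was a DEG in F14 against M14 too (−5.06, limma adjusted p = 0.00053).

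Nplp2 (chr3L:13356376-13357223), which encodes a neuropeptide-like precursor, had 5594 and 1458 reads in F7, against 436, 295 and 246 in M14 (3.17 ± 0.57, adjusted p = 0.036). The neuropeptide list had no other DEG among its 50 genes, and its median was −0.05. The gene daw (chr2L:2805261-2812376) encodes dawdle, an Activin-like ligand that links metabolism to TGF-beta signalling. It had 228 and 103 reads in F7, against 26.7, 40.04 and 20.1 in M14 (2.42 ± 0.47, adjusted p = 0.074). Both were higher in every F7 library than in any M14 library. Leaving out 1 library ended the call of Nplp2 in 2 cases and that of daw in 8. Without M14 replicate 2 neither was a DEG. Both were also higher in females at equal ages. At 3, 7 and 14 days the log2 fold changes were 2.56, 2.14 and 4.80 for Nplp2 and 1.80, 1.75 and 1.86 for daw. Of these, Nplp2 was a DEG at 3 and 14 days and daw at 3 days.

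The last 3 DEGs were of moderate size and had F7 libraries that lay close together. CG31523 (chr3R:4465421-4479207), annotated by homology as a fatty acid elongase, had 380 and 418 reads in F7, against 99.3, 200 and 144 in M14 (1.48 ± 0.28, adjusted p = 0.047). Septin4 (chrX:16684216-16695173), a member of the septin family of filament-forming GTPases, had 907 and 789 reads in F7, against 199, 425 and 327 in M14 (1.48 ± 0.31, adjusted p = 0.098). CG14431 (chrX:6908277-6968829), which overlaps Setd3 on the other strand, had 520 and 440 reads in F7, against 188, 191 and 243 in M14 (1.21 ± 0.25, adjusted p = 0.098). Leaving out 1 library ended the call of CG31523 in 2 cases and those of Septin4 and CG14431 in 13 cases each.

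The values of M7 placed these genes differently. CG31523 had 406, 331 and 448 reads in M7, so that F7 differed from M7 by a log2 fold change of 0.02, while Septin4 (0.59) and CG34227 (−2.39) differed from M7 in the direction in which they differed from M14, neither as a DEG. The difference of both comparisons is M14 against M7, which uses the same M14 libraries. There the log2 fold changes were −1.46 for CG31523, −0.89 for Septin4 and 2.91 for CG34227 (adjusted p = 0.076 each). The number of DEGs between M14 and M7 depended on single libraries. It was 2639 genes (21.2%), 1825 higher (14.7%) and 814 lower (6.54%) in M14 than in M7, but 0 without M14 replicate 1 (1490 at an unadjusted p of 0.05) and 0 in edgeR (3634 at an unadjusted p of 0.05), while DESeq2 gave 3494.

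The X chromosome stood apart from the autosomes. It held 6 of the 11 genes higher in F7, including the 3 yolk protein genes, and none of the 6 lower ones, while 1976 of the 12448 genes tested (15.9%) are X-linked. The median log2 fold change was 0.21 for X-linked genes and −0.26 for autosomal genes, a distance of 0.47 that ran from 0.41 to 0.54 when single libraries were left out. Each large autosomal arm had a median of −0.26 or −0.27. At an unadjusted p of 0.05, X-linked genes were 321 of the 963 higher genes (33.3%) and 10 of the 804 lower ones (1.24%). In DESeq2 they made up 170 of 476 higher genes (35.7%). Against M7 the X-linked median was 0.36, beside 0.05 for the autosomes. The median level of X-linked genes was 7.06 and 7.14 in F7 and 7.09, 6.94 and 6.79 in M14, on the scale of log2(normalized reads + 1).

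The small chromosome 4 had a median of 0.66 over 80 genes, of which 69 had a positive fold change, 25 were higher at an unadjusted p of 0.05 (beside 7.74% of all genes) and none was a DEG. Relative to all genes its median was 0.83, which became 0.38 without F7 replicate 1, 0.38 without M14 replicate 1 and 1.24 without F7 replicate 2. Its median level on the same scale was 10.36 and 9.43 in F7 and 8.44, 9.47 and 9.44 in M14. Only F7 replicate 1 lay above and only M14 replicate 1 below the other libraries, which were almost equal.

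Genes of synaptic release, nicotinic receptors and voltage-gated channels lay above the median of all genes in F7. To allow for the shift of all genes, which changed from −0.17 to 0.05 under quantile normalization, the medians of several lists are also given relative to it. Synaptic vesicle and release genes had a median of 0.89 over 39 genes, of which 37 had a positive fold change, 20 were higher at an unadjusted p of 0.05 (beside 7.74% of all genes) and none was a DEG. Nicotinic acetylcholine receptor subunits, the main excitatory receptors of the fly brain, had a median of 1.00 over 10 genes, and voltage-gated channels had 0.78 over 32. Relative to all genes these 3 medians were 1.06, 1.16 and 0.95, but under quantile normalization 0.16, 0.26 and 0.11. Neuropeptide and monoamine genes had smaller relative medians, 0.12 over 50 genes and 0.35 over 30. Under quantile normalization those were −0.05 and −0.14.

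Named members of this and the following lists, unless DEGs, were chosen after their values were seen, from the 4 members of each list with the lowest p. Complexin (cpx), which clamps vesicle fusion, had 38203 and 10535 reads in F7, against 2389, 8319 and 7753 in M14 (1.90, adjusted p = 0.34). F7 replicate 1 was far above and M14 replicate 1 far below, while F7 replicate 2 was near the other M14 libraries. The same order held for Gad1, the enzyme that makes GABA, with 7613 and 4753 reads in F7, against 991, 3932 and 3350 in M14. It was less marked for nAChRalpha3, with 5048 and 3219 reads in F7, against 1206, 1968 and 2277 in M14 (1.20, adjusted p = 0.33). On the log2 scale the median level of the synaptic list was 12.18 and 11.39 in F7 and 10.09, 11.39 and 11.31 in M14, and without M14 replicate 1 its median relative to all genes was 0.54.

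Glial genes had a median of 0.36 over 31 genes, with 9 higher and 0 lower at an unadjusted p of 0.05 and 13 within 2-fold, beside 7.74%, 6.46% and 22.8% of all genes. The glial median relative to all genes was 0.53, and 0.20 under quantile normalization. The gene of the blood-brain barrier transporter Mdr65 had 366 and 495 reads in F7, against 107, 200 and 170 in M14 (1.46, adjusted p = 0.18), without overlap. In M14 it was below M7, with a log2 fold change of −1.37 (adjusted p = 0.076). Among muscle genes, which mark tissue other than brain, 7 of 27 were higher at an unadjusted p of 0.05 and 1 was lower, beside 7.74% and 6.46% of all genes. One of them, Mlc2, had 1146 and 954 reads in F7, against 254, 424 and 494 in M14 (1.47, adjusted p = 0.34).

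Receptor genes of chemosensory cells, pickpocket channels and genes of motile cilia lay below the median of all genes in F7. The medians were −1.21 for 44 gustatory receptors, −0.90 for 52 odorant receptors, −1.05 for 51 ionotropic receptors and −1.36 for 25 pickpocket sodium channels. All 44 gustatory receptors and all 25 pickpocket channels tested had a negative fold change, beside 7301 of all 12448 genes. The filter kept 44 of 57 and 25 of 27 members by means that include M14. A member that passed through high M14 values would be negative for that reason, and how many did was not tested. No member of these 4 lists was a DEG, beside 0.137% of all genes. At an unadjusted p of 0.05, 7 gustatory, 4 odorant and 5 ionotropic receptors and 4 pickpocket channels were lower and 0 were higher, beside 6.46% and 7.74% of all genes. Most of them had low levels. Or24a had 14.4 and 90.9 reads in F7, against 338, 214 and 86.7 in M14 (−2.30, adjusted p = 0.34), so that F7 replicate 2 lay within the M14 range. Gr33a, a receptor for bitter compounds, had 0 and 3.19 reads in F7, against 37.6, 15.0 and 9.01 in M14.

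Axonemal genes, which drive motile cilia and sperm tails, had a median of −1.04 over 31 genes, 30 of them negative. The dynein heavy chain gene Dhc98D had 117 and 336 reads in F7, against 1474, 385 and 330 in M14 (−1.52, adjusted p = 0.35). The value of F7 replicate 2 lay next to those of M14 replicates 2 and 3, and M14 replicate 1 alone was high. The separate list of cilium assembly genes had a smaller shift, with a median of −0.55 over 39 genes. Relative to all genes that median was −0.39, and −0.0 without M14 replicate 1. Cuticle proteins (median −1.16 over 88 genes) and testis genes (−1.0 over 50 genes) lay below the median of all genes too, and neither list held a DEG. So did the 42 of 56 accessory gland and seminal fluid genes that passed the filter (−1.92).

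The spread between libraries was wide in these lists, and the taste receptor and cuticle genes are also part of the 194 genes that gave the background level. The median level of cilium motility genes on the log2 scale was 5.06 and 6.10 in F7 and 7.79, 6.30 and 5.36 in M14, and that of cuticle protein genes was 3.11 and 4.39 in F7 and 5.70, 4.70 and 4.05 in M14. In both lists M14 replicate 1 was highest, F7 replicate 1 lowest, and F7 replicate 2 lay inside the M14 range. Relative to all genes the gustatory receptor median was −1.04, which became −0.39 without F7 replicate 1, −0.60 without M14 replicate 1 and −1.84 without F7 replicate 2. Without F7 replicate 1 the relative median also shrank for ionotropic receptors, odorant receptors and pickpocket channels (−0.19, −0.27 and −0.58, beside −0.88, −0.73 and −1.20 with all libraries). It shrank as well for cilium motility, cuticle, testis and accessory gland genes, at −0.25, −0.44, −0.48 and −0.74 without that library, beside −0.87, −0.99, −0.83 and −1.75 with it. Without M14 replicate 1 the cilium motility, cuticle and testis medians were −0.42, −0.63 and −0.46. Under quantile normalization the relative medians shrank too, to −0.65, −0.26, −0.36 and −0.89 for gustatory, odorant and ionotropic receptors and pickpocket channels. For cilium motility, cuticle, testis and accessory gland genes they were −0.74, −0.52, −0.60 and −0.90. Against M7 some of these lists had medians above 0 in F7, at 0.35 for gustatory receptors, 0.64 for odorant receptors, 0.76 for ionotropic receptors and 0.86 for cilium motility. By the medians of these 4 lists F7 lay between M7 and M14, whereas accessory gland genes had a median below 0 against M7 too (−0.71). Photoreceptor genes went the other way, with a median of 0.43 over 41 phototransduction and retina genes, of which 6 were higher and 2 lower at an unadjusted p of 0.05, beside 7.74% and 6.46% of all genes. Their median relative to all genes was 0.60, and 0.12 under quantile normalization.

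**Figure D3:**
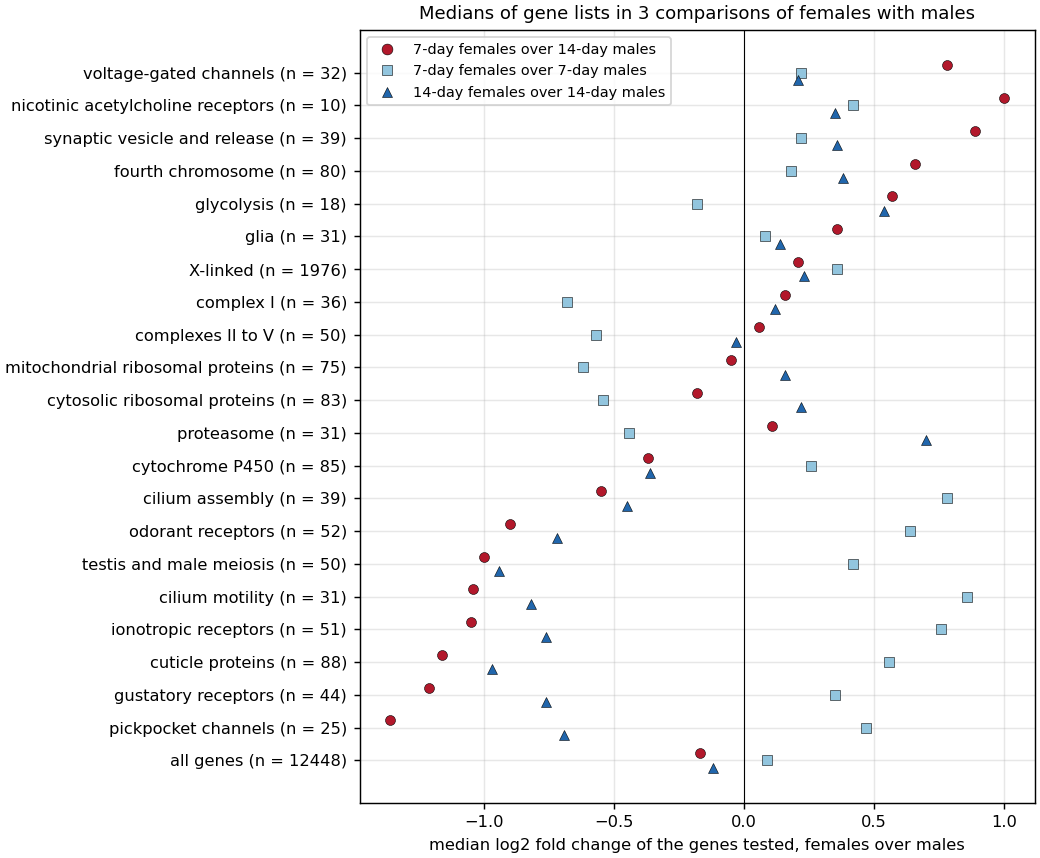
Median log2 fold change of females over males for 21 gene lists and all genes, with the number of genes tested in brackets. Red circles are 7-day females over 14-day males, pale squares 7-day females over 7-day males and blue triangles 14-day females over 14-day males; the circle lies near 0 for complex I (0.16) where the square is at −0.68, and below 0 for gustatory receptors (−1.21) where the square is at 0.35.

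With all libraries, the medians of genes of respiration and translation lay near even between F7 and M14. Subunits of complex I, which passes electrons from NADH into the respiratory chain, had a median of 0.16 over 36 genes between F7 and M14, beside −0.68 between F7 and M7. Of these, 20 lay within 2-fold between F7 and M14 (55.6%, beside 22.8% of all genes), against 1 between F7 and M7 (beside 26.8% of all genes there). Complexes II to V had medians of 0.06 and −0.57 over 50 genes, and mitochondrial ribosomal proteins −0.05 and −0.62 over 75 genes, for F7 against M14 and F7 against M7 in that order. Of the mitochondrial ribosomal protein genes, 37 lay within 2-fold of M14 and 8 within 2-fold of M7. Cytosolic ribosomal proteins had medians of −0.18 and −0.54 over 83 genes, with 51 and 25 within 2-fold. Such evenness was found in other pairs too. Between F14 and M14, 16 complex I, 36 mitochondrial and 58 cytosolic ribosomal protein genes lay within 2-fold (26.8% of all genes), and between 3-day females and M7 the counts were 29, 43 and 65 (33.3% of all genes). None of these 4 lists held a DEG between F7 and M14, beside 0.137% of all genes.

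The median level of complex I genes, as log2(normalized reads + 1), was 9.52 and 8.83 in F7 and 8.39, 9.31 and 9.74 in M14, against 10.07, 10.07 and 9.65 in M7. F7 lay inside the M14 range and below every M7 library. Mitochondrial ribosomal protein genes showed the same order on this scale, at 7.19 and 6.83 in F7 and 6.46, 7.13 and 7.50 in M14, against 7.76, 7.76 and 7.41 in M7. Cytosolic ribosomal protein genes were at 10.38 and 9.51 in F7 and 9.80, 10.18 and 10.44 in M14. For them F7 replicate 2 lay below every M14 library. Single subunits varied, as for ND-75 of complex I, which had 1870 and 1160 reads in F7, against 514, 945 and 1239 in M14 (0.80, adjusted p = 0.34).

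The difference of both comparisons was tested gene by gene as M14 against M7. There 24 of 36 complex I genes were lower in M14 and 0 higher, and for complexes II to V 25 were lower and 3 higher, beside 6.54% and 14.7% of all genes. Without M14 replicate 1 none of these genes was a DEG, while the complex I median went from −0.83 to −0.46 and 14 genes were lower at an unadjusted p of 0.05. Relative to all genes the complex I median between F7 and M14 was 0.33. It became 0.63 without F7 replicate 2, −0.04 without F7 replicate 1 and −0.08 without M14 replicate 1, so its sign was not settled by these libraries. Under quantile normalization it was −0.04. For cytosolic ribosomal proteins the relative median was −0.01, and −0.51 without F7 replicate 1 and 0.47 without F7 replicate 2. It was −0.65 under quantile normalization.

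**Figure D4:**
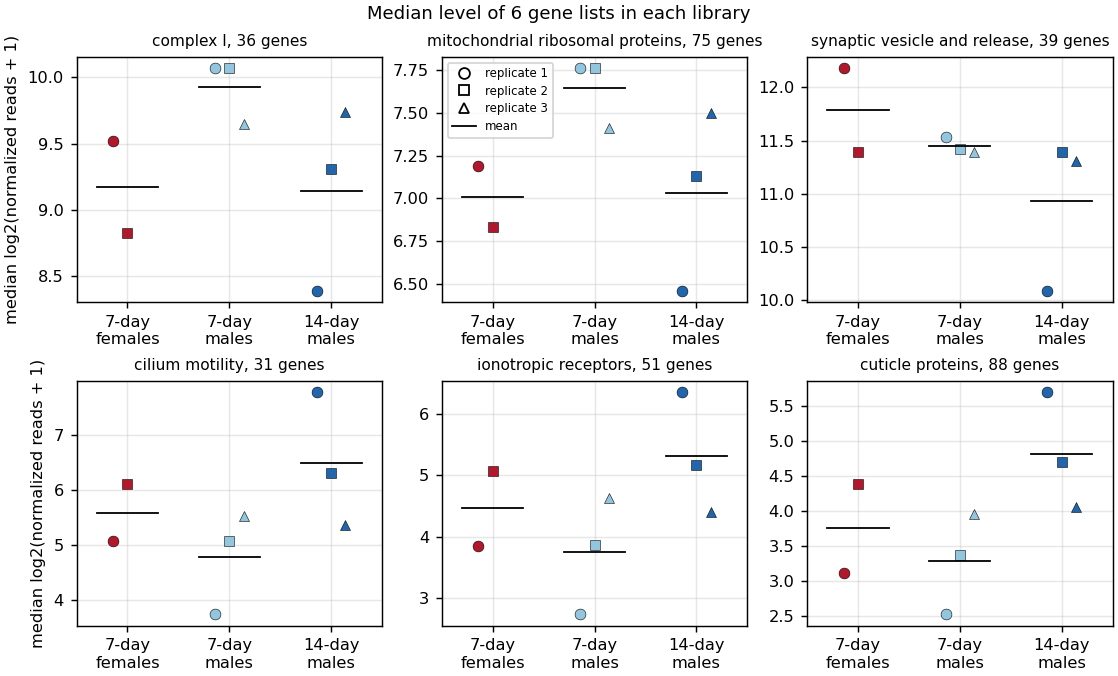
Median level of 6 gene lists in each library of 7-day females, 7-day males and 14-day males, as log2(normalized reads + 1), with a bar at the mean of the group and a marker shape for each replicate. For complex I the F7 libraries (9.52 and 8.83) lie inside the M14 range and below the M7 libraries, and in the cilium, ionotropic receptor and cuticle lists M14 replicate 1 is the highest library.

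Glycolysis genes had a median of 0.57 over 18 genes between F7 and M14, beside −0.18 between F7 and M7. Between F7 and M14, 6 were higher and 0 lower at an unadjusted p of 0.05, beside 7.74% and 6.46% of all genes. The glycolysis median relative to all genes was 0.74, and 0.38 without F7 replicate 1, 0.39 without M14 replicate 1, 1.12 without F7 replicate 2 and 0.15 under quantile normalization. The hexokinase gene Hex-A had 3733 and 1856 reads in F7, against 944, 1456 and 1678 in M14 (0.99, adjusted p = 0.34), without overlap. Clock genes, which time daily rhythms, had a median of 0.39 over 20 genes, with 7 higher and 1 lower at an unadjusted p of 0.05, beside 7.74% and 6.46% of all genes. Relative to all genes it was 0.56, and 0.17 without F7 replicate 1, 1.09 without F7 replicate 2 and 0.14 under quantile normalization. The clock gene per had 321 and 197 reads in F7, against 151, 125 and 137 in M14 (0.87, adjusted p = 0.34). Antimicrobial and immune-induced peptides had mixed changes (median −0.33 over 38 genes, with 2 higher and 3 lower at an unadjusted p of 0.05, beside 7.74% and 6.46% of all genes), and relative to all genes their median changed sign when single libraries were left out, from −0.30 to 0.19.

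Stress and growth-factor genes held 2 near misses without overlap. The humoral stress gene TotA had 533 and 328 reads in F7, against 77.5, 148 and 109 in M14 (1.95, adjusted p = 0.17). It did not stand for its list: of the 6 Turandot stress genes tested 4 had a negative fold change, and the median was −0.61. The chitinase-like growth factor gene Idgf4 had 1208 and 760 reads in F7, against 361, 329 and 392 in M14 (1.41, adjusted p = 0.15). Of the 6 imaginal disc growth factor genes 5 had a positive fold change (median 0.92), while Idgf5 was lower in F7 (−1.39, adjusted p = 0.35). Of the 46 lists, 38 held no DEG and 8 held at least 1, with 0.137% of all genes called.

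The genes that changed with age in both sexes bear most directly on a lag. There were 522 genes higher in F7 than in 3-day females and higher in M14 than in M7, and 16 genes lower in both. Since the M14 and F7 libraries chose them, their values in F7 against M14 are a description. None of them was a DEG between F7 and M14, beside 0.137% of all genes, so this count does not show likeness. The 522 had a median log2 fold change of −1.27, with 79 lower at an unadjusted p of 0.05, 0 higher and 1 within 2-fold, beside 6.46%, 7.74% and 22.8% of all genes. On the log2 scale the median level of these 522 was 4.71 and 6.10 in F7 and 7.69, 6.51 and 5.79 in M14, against 3.25, 4.30 and 5.37 in M7. F7 replicate 2 lay among the M14 libraries and F7 replicate 1 among the M7 libraries. For the 16 lower genes the median was 0.36, and 5 lay within 2-fold.

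Both sets depended on single libraries and on how the data were scaled and fitted. No gene passed both tests with quantile normalization, array weights, the background level as a covariate, a replicate block or only the groups compared. In limma no gene passed both tests without M14 replicate 1, M14 replicate 2, F7 replicate 2, M7 replicate 1 or M7 replicate 2, nor did any in edgeR, whereas DESeq2 gave 1095 higher and 45 lower. A direct test of whether the change from 3 to 7 days in females differed from that from 7 to 14 days in males called 0 of 12448 genes in limma, with 418 at an unadjusted p of 0.05, and 11 in DESeq2. The median SE of this difference was 0.61 on the log2 scale.

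Of the genes that rose most in both sexes, the pickpocket channel gene ppk3 had 15.3 and 84.5 reads in F7, against 319, 119 and 63.1 in M14 (−1.85 ± 1.16, adjusted p = 0.41). The values of Np, CG15128, CG42296, org-1 and solo were likewise lowest in F7 replicate 1 and highest in M14 replicate 1, with log2 fold changes from −1.89 (Np) to −0.79 (org-1). Among those that fell, the myosin light chain gene Mlc1 had 581 and 580 reads in F7, against 355, 275 and 282 in M14 (0.94 ± 0.40, adjusted p = 0.34). The amylase genes Amy-d and Amy-p, which are near-identical copies whose reads are hard to divide, had log2 fold changes of 0.22 ± 0.81 and −0.17 ± 0.64, and those of wat, CG44325 and Acbp2 were 0.75, 0.50 and 0.19. None of these was a DEG.

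The study names 27 genes one by one, among them those it measured by qRT-PCR, their reference gene RpL32 and genes in its account of changes with age. Of these, 26 were tested, and Yp1 and Yp3 alone were DEGs. Many were picked from these libraries, so the list is not independent evidence. Its median was 0.46, with 8 higher and 0 lower at an unadjusted p of 0.05, beside 7.74% and 6.46% of all genes. Appl, the fly homologue of the amyloid precursor protein gene, had 23002 and 8064 reads in F7, against 1960, 5798 and 6492 in M14 (1.70 ± 0.58, adjusted p = 0.34). Moca-cyp, which overlaps an antisense RNA gene, had 992 and 805 reads in F7, against 250, 355 and 592 in M14 (1.25 ± 0.31, adjusted p = 0.24), and DESeq2 gave it an adjusted p of 0.027. Neither gene overlapped between the groups. Zw10, a kinetochore gene that overlaps Smyd3, had 212 and 190 reads in F7, against 89.6, 68.8 and 125 in M14 (1.12 ± 0.30, adjusted p = 0.33). The ecdysone receptor gene EcR had a log2 fold change of 0.69 ± 0.29, and the ribosomal protein gene RpL32 had −0.28 ± 0.28.

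In the same list, Jon65Aiv, a serine protease gene, had 488 and 15.2 reads in F7, against 72.7, 30.0 and 60.3 in M14, so that 1 library set its mean. The seminal fluid peptide gene SP was at 0 in both F7 libraries, against 0, 225 and 2.77 reads in M14, and its signal came from M14 replicate 2. For solo the reads were 23.4 and 77.3 in F7, against 247, 110 and 79.7 in M14 (−1.58 ± 0.82, adjusted p = 0.37), and it overlaps vas on the same strand. The other members tested had log2 fold changes from −1.39 (SA2) to 1.17 (Pdp1).

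Some large changes were not called, and the reason was not tested. With a mean of at least 100 reads, 16 genes had a fitted change of over 6-fold and were not DEGs, 6 of them higher and 10 lower in F7. The examples below were chosen after their values were seen. CG43673 had 1263 and 37.5 reads in F7, against 1.21, 23.8 and 7.63 in M14 (4.82 ± 1.57, adjusted p = 0.34). CG8329 had 483 and 20.7 reads in F7, against 1820, 2201 and 1179 in M14 (−4.03 ± 1.21, adjusted p = 0.34). The groups did not overlap for either gene, but the F7 libraries were far from each other. Genes named for the antenna were high in replicate 1 of both groups: a10 had 5088 and 359 reads in F7, against 1326, 101 and 66.6 in M14. Antdh, the antennal dehydrogenase gene, had 2039 and 119 reads in F7, against 268, 37.5 and 25.7 in M14.

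Over the 12448 genes, the Spearman correlation of F7 replicate 1 was 0.721, 0.898 and 0.932 with the M14 libraries and 0.939, 0.945 and 0.945 with the M7 libraries. For F7 replicate 2 it was 0.840, 0.951 and 0.962 with M14 and 0.907, 0.939 and 0.952 with M7. Among the M7 and M14 libraries, F7 replicate 1 was thus closest to M7 and F7 replicate 2 to M14 replicate 3. With 3-day males the correlations were 0.920, 0.941 and 0.940 for F7 replicate 1 and 0.952, 0.934 and 0.934 for F7 replicate 2. The highest correlation of F7 replicate 1 was with 3-day females replicate 1 (0.958). For F7 replicate 2 it was with 14-day females replicate 2 (0.969). These correlations are across genes, which are not independent replicates, and depth and background are shared by all points of a library.

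The mean absolute log2 difference, where a smaller value means more alike, did not rank all libraries as the correlation did. It was 1.64, 1.04 and 0.834 between F7 replicate 1 and the M14 libraries, and 0.995, 0.499 and 0.465 between F7 replicate 2 and the M14 libraries. With the M7 libraries it was 0.873, 0.744 and 0.773 for F7 replicate 1 and 1.14, 0.793 and 0.506 for F7 replicate 2. By this measure M14 replicate 3 was nearer to F7 replicate 1 than M7 replicate 1 was, and by the correlation it was further. Between the F7 libraries themselves it was 0.906, and between pairs of M14 libraries 0.870, 1.15 and 0.513. The distances from F7 replicate 2 to M14 replicates 2 and 3 were therefore smaller than the distance between the 2 libraries of F7.

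**Figure D5:**
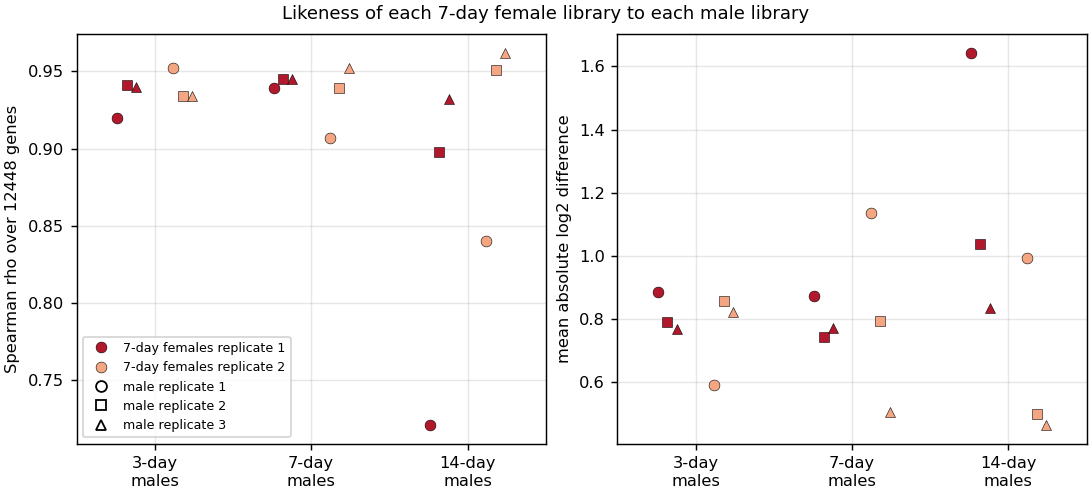
Spearman correlation (left) and mean absolute log2 difference (right) over 12448 genes between each library of 7-day females and each library of 3-, 7- and 14-day males. Dark marks are F7 replicate 1 and pale marks F7 replicate 2, and marker shapes are male replicates; the dark circle at 14 days (0.721) is the least alike pair and the pale triangle at 14 days (0.962) the most alike.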

How the data were processed

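Brain RNA of virgin females and males was sequenced by the authors on a NextSeq2000 from libraries of the TruSeq RNA Library Prep Kit v2, which does not mark the strand. Per the labels and the study's methods, reads were trimmed with Trimmomatic (0.39), mapped with STAR (2.7.3a) and normalized in DESeq2 (2.10, in R 2.14.1), and the deposited signal values are these normalized reads per gene. Whole reads were recovered with 1 factor per library: 100% of values came out whole within 0.001. Reads are not counted by molecule, so only the spread between libraries was used as error.

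Of 13439 genes, 13434 were placed by annotation symbol and 4 by a synonym in NCBI's gene table (Release 6 plus ISO1 MT), and 1 was not matched. The 12448 genes that averaged 5 or more over all 16 libraries were fitted on log2(normalized reads + 1) in limma 3.58.1, run in R 4.3.3 with a trended variance, and the added 1 understates changes of low genes. All 6 groups shared 1 model, each p is limma's, and Benjamini-Hochberg adjustment ran over all genes tested, with a threshold of 0.1. Fold changes are 7-day females over 14-day males, and 14-day over 7-day males, unless named otherwise. An interval within 2-fold means that the 95% interval lay between −1 and 1 on the log2 scale.

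Genes were named when they passed the threshold, averaged 50 or more, did not overlap between the groups and had 1 of the 12 largest changes in their direction. To these were added up to 3 members of each list past the threshold, the genes that check the labelled sex, those the study names and, for the lag, the 6 in each direction with the largest smaller change. The roX RNAs are not analysed here. The members, the 46 gene lists and the alternatives were chosen with earlier results of these data known, and lists are described by counts and medians without a test. Alternatives were edgeR 4.0.16 and DESeq2 1.42.0 on the recovered reads, other pseudocounts, filters, scalings and thresholds, array weights, the background level as a covariate, only the groups compared, a replicate block and leaving out libraries. The fit was also run on simulated data with known changes. Other steps used numpy 2.4.6, pandas 2.3.3, scipy 1.17.1 and, for figures, matplotlib 3.10.9 under Python 3.11.15.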

Additional observations from a re-analysis of the deposited data

How the results depend on the processing

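The count of 17 DEGs between 7-day females and 14-day males was 496 in DESeq2, 28 with quantile normalization, 10 with the background level as a covariate, 9 with only the groups compared, 7 with array weights, 1767 at an unadjusted p of 0.05 and 446 without 7-day female replicate 2 and 14-day male replicate 1. DESeq2 gave no adjusted p to 9412 genes, including 7 of the 17, and called the other 10. Leaving out 1 library gave 6 (without 7-day female replicate 1) to 1077 (without 7-day female replicate 2), with 7 without replicate 1 and 8 without replicate 2 of the 14-day males. Genes higher ran from 4 to 569 and lower from 1 to 508. Where a group kept 1 library, it was assumed to vary like the other groups.

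Genes within 2-fold numbered 936 with only the groups compared and 200 at a bound of 1.5-fold, and ran from 1230 to 3743 with 1 library left out. The edgeR fit gave no interval for this count.

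The count of 2639 between 14-day and 7-day males was 0 with the background covariate (201 at an unadjusted p of 0.05), in edgeR (3634), at an adjusted p of 0.05 and without 7-day female replicate 2 and 14-day male replicate 1 together (1667). It was 1 with array weights and with only the groups compared, 1325 with quantile normalization and 4333 at an unadjusted p of 0.05. It ran from 0 (without 14-day male replicate 1, 7-day male replicate 1 or 7-day male replicate 2) to 5308 (without 14-day male replicate 3), with 1 without 14-day male replicate 2 and 1331 and 1271 without 14-day female replicates 2 and 3. Between 14-day and 7-day females limma called 0, with 275 at an unadjusted p of 0.05, 2 without the 2 libraries above and 0 to 3 with 1 library left out. The difference of changes gave 0 in limma, 11 in DESeq2, 418 at an unadjusted p of 0.05 and 0 to 1 with 1 library left out.

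Over the series, libraries with the same replicate number did not deviate together (median r −0.05 over 35 pairs, beside 0.01 over 71 others). Between 7-day females and 14-day males r was −0.50 for replicate 1 and −0.22 for replicate 2, so these deviated in opposite directions. With a replicate block 9 DEGs remained between 7-day females and 14-day males, all among the 17, and 0 between 14-day and 7-day males (4028 at an unadjusted p of 0.05).

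No DEG reversed its direction in these alternatives. Of the values of named genes 1441 kept their side of the threshold, 133 lost it, 14 gained it and 35 moved. Of the list medians 1280 moved by less than the spread between libraries and 54 by more. The distance of X-linked genes from autosomes and the correlation of libraries did not move beyond that spread. The cause of these changes was not tested.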
